A study of Mus musculus with 46 samples.

Results

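The DM-domain genes are transcription factor genes that share a DNA-binding domain first described in the fly sex-determination gene doublesex and the worm gene mab-3. The symbols Dmrt1, Dmrt2, Dmrt3, Dmrta1, Dmrta2 and Dmrtb1 were looked up in the gene annotation of the array, and all 6 were found, each read by 1 probe set, among 19938 genes that could be named by a single symbol. They were followed across 23 mouse cell lines in 8 groups. Dmrt1 was bright in the germline stem cells and far dimmer in all 20 pluripotent lines. Dmrt3, which lies beside it on chromosome 19, was also lower in all 20. Dmrt2, the next gene, rose above the background level only in 2 lines, both of germline stem cells. The lines made with a Dmrt1 knockdown vector overlapped in Dmrt1 level with those made without one.

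In mammals DMRT1 acts in the testis, in Sertoli cells, where it maintains male identity, and in germ cells, where it holds spermatogonia in mitosis and restrains entry into meiosis. Its loss in the fetal germ line of some mouse strains is followed by teratomas, tumours made of cells that have regained pluripotency. Other family members act largely outside the gonad, in somites and the nervous system, apart from Dmrtb1, which acts in the testis as spermatogonia pass into meiosis.

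The study measured mRNA on whole-transcript arrays in cell lines that lead from the male germ line to pluripotency. GS cells (germline stem cells, cultured spermatogonia with stem cell activity) were 3 lines grown with GDNF and bFGF in a serum-poor stem cell medium. The other 20 lines were grown with serum and LIF: 3 embryonic stem (ES) lines, R1, B6-6 and BRC1, 3 induced pluripotent stem (iPS) lines made by retroviral delivery of c-myc, Klf4, Oct4 and Sox2, and 2 mGS lines, which are multipotent germline stem cells that arose from GS cells spontaneously. The last 12 were mGS lines induced from GS cells by 4 routes of 3 lines each, all with lentiviral knockdown of p53. Dnmt mGS lines also had a Dnmt1 knockdown vector, Dmrt mGS lines a Dmrt1 knockdown vector, Sox2 mGS lines a Sox2 expression vector and Oct4 mGS lines an Oct4 expression vector. All lines were kept on mouse embryonic fibroblast feeders, and the feeders were thinned out on gelatin-coated plates ahead of RNA extraction. The second R1 culture is called R1 in its title and R2 in its description, and was taken as R1. The ES lines came from 129, C57BL/6 or mixed backgrounds and the others from DBA/2 mice with a GFP transgene. Between GS and the pluripotent groups, cell type and medium therefore changed together, and for ES strain as well. For iPS and the induced routes the vectors differed too, also when these groups are set against ES or spontaneous mGS. The shares of these factors in a difference cannot be told apart.

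Each line was measured in 2 cultures, and the level of a line is the geometric mean of both intensities, in the linear units of the deposited values. The replicate is the line. The labels do not say whether lines of a group came from separate animals, so the p-values measure the spread between lines. The number of lines limits their precision. Values reached 27420 over 46 arrays, and array medians ran from 215 to 242, apart from 1 culture of Oct4 mGS line 1 at 265. As a yardstick for background, the 95th percentile of the mean levels of 1027 olfactory receptor genes was 161. The labels held against marker genes: GS markers had a geometric mean of 2714 in GS and 160 to 183 in the other groups, and pluripotency markers 150 in GS and 975 to 3014 elsewhere. Markers of somatic cells of the gonad, among them Sertoli and granulosa cells, had geometric means of 135 to 152 in all groups. These means hide single markers above background, 4 or 5 of 13 measured in each group. Sox9 was at 497 to 599 in GS and 324 to 837 elsewhere, and Wt1 at 341 to 854 and 103 to 1179. In bulk RNA of this kind, fewer cells of a type and less RNA per cell cannot be told apart.

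Dmrt1 had an intensity of 4220, 3400 and 3379 in GS lines 1, 2 and 3. The ES lines R1, B6-6 and BRC1 had 403, 499 and 401, iPS lines 1, 2 and 5 had 274, 230 and 572, and the 2 spontaneous mGS lines had 233 and 286. These groups did not overlap with GS. Dnmt mGS lines had 218, 220 and 665, and Dmrt mGS lines, in which the gene was the target of the knockdown vector, had 191, 413 and 554. Sox2 mGS lines had 151, 292 and 202 and Oct4 mGS lines had 292, 280 and 389. The dimmest GS line was therefore above each of the 20 other lines, which ran from 151 to 665 with a median of 289, and only Sox2 mGS line 1 fell below the background level.

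**Figure D1:**
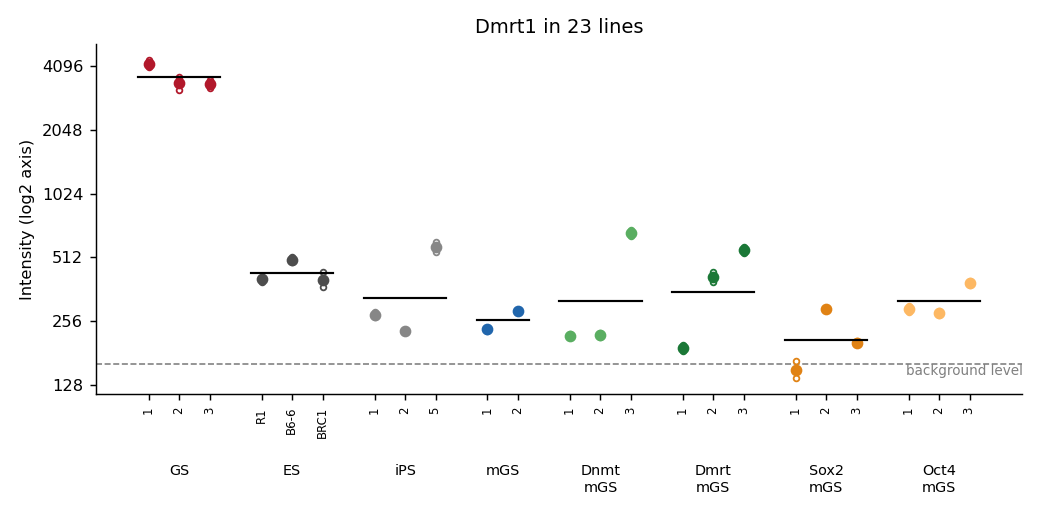
Dmrt1 intensity (log2 axis) by group and line. Small open circles are the 2 cultures of a line, filled circles the line, black bars the group mean and the dashed line the background level of 161. The 3 GS lines sit between 3379 and 4220, and the 20 other lines between 151 and 665.

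In a limma fit over all 23 lines, with Benjamini-Hochberg adjustment over all 19938 genes at 0.05, Dmrt1 was lower than in GS in each of the 7 other groups. The log2 difference was -3.08 ± 0.42 (SE) in ES (8.44-fold, limma adjusted p = 1.01e-05), -3.46 ± 0.42 in iPS (11.0-fold) and -3.82 ± 0.47 in spontaneous mGS (14.1-fold). Among the induced routes it was -3.52 ± 0.42 in Dnmt mGS (11.5-fold), -3.37 ± 0.42 in Dmrt mGS (10.3-fold), -4.14 ± 0.42 in Sox2 mGS (17.6-fold) and -3.53 ± 0.42 in Oct4 mGS (11.5-fold). The median over all genes moved far less, between -0.17 in iPS and -0.04 in Oct4 mGS. All 131 values of these comparisons under other settings stayed lower and past the threshold, with a highest adjusted p of 0.00136 by limma.

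Ordered by mean Dmrt1 level, the groups ran GS at 3646, ES at 432, Dmrt mGS at 352, iPS at 330, Dnmt mGS and Oct4 mGS both at 317, spontaneous mGS at 258 and Sox2 mGS at 207. Of the neighbours in this order, only GS and ES had lines that did not overlap. The Dmrt mGS lines thus held a place next to ES and iPS lines, which carried no Dmrt1 vector. Their log2 difference from the mean of the other 3 induced routes was 0.36 ± 0.35 (95% interval -0.37 to 1.08, limma adjusted p = 0.80). Against ES it was -0.29 ± 0.42 (-1.19 to 0.60, adjusted p = 0.80 by limma), and without Dmrt mGS line 1 it was 0.15. Against iPS it was 0.09 ± 0.42 (-0.80 to 0.98, adjusted p = 0.92 by limma). These intervals do not show that the groups were alike, and whether the knockdown vectors were still active in these lines was not tested.

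The gap between Sox2 mGS and ES was the widest seen among the pluripotent groups, with a log2 difference of -1.06 ± 0.42 (95% interval -1.95 to -0.17) and lines that did not overlap. It missed the threshold, with a limma adjusted p of 0.10, and it passed with the feeder marker level as a covariate, at -1.53 (adjusted p = 0.017 by limma), and when only the groups compared were fitted (adjusted p = 0.029 by limma). The other 14 comparisons of Dmrt1 outside GS had higher adjusted p-values, and their differences lay between -0.74 and 0.36.

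The spread of Dmrt1 between lines differed from group to group. The brightest line exceeded the dimmest 3.05-fold in Dnmt mGS, 2.90-fold in Dmrt mGS, 2.49-fold in iPS, 1.94-fold in Sox2 mGS and 1.39-fold in Oct4 mGS. The same ratio was 1.25 in GS, 1.24 in ES and 1.22 in spontaneous mGS. The 2 cultures of a line differed by a median of 0.085 on the log2 scale and by at most 0.27, while the 20 lines outside GS had an SD of 0.59, so a line's level was repeated by its second culture. Over these 20 lines Dmrt1 had a Pearson r of -0.02 with the GS markers, 0.10 with the pluripotency markers and 0.12 with the feeder markers, given as a description of lines that share feeders and media.

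Dmrt3, which in the spinal cord specifies interneurons of the locomotor circuit, lies next to Dmrt1. Its intensity was 621, 723 and 760 in the GS lines. Outside GS it kept to a narrow band, from 395 in ES line R1 to 528 in Dmrt mGS line 3, with a median of 467 over the 20 lines. The ES lines had 395, 482 and 453, iPS lines 411, 421 and 441, and spontaneous mGS lines 436 and 438. Dnmt mGS lines had 468, 482 and 498, Dmrt mGS lines 505, 470 and 528, Sox2 mGS lines 457, 470 and 488, and Oct4 mGS lines 450, 467 and 474. All 20 lines were above background and below the dimmest GS line.

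Dmrt3 was lower than in GS in each of the 7 groups by the same limma fit, with log2 differences from -0.72 ± 0.08 in iPS to -0.48 ± 0.08 in Dmrt mGS and a highest adjusted p of 0.000106. All 131 values under other settings stayed lower and past the threshold. Outside GS no Dmrt3 comparison passed. Dmrt mGS, the highest of the pluripotent groups, differed from ES by 0.18 ± 0.08 (limma adjusted p = 0.26) and from iPS by 0.24 ± 0.08 (limma adjusted p = 0.15).

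Dmrt2, which patterns the somites of the embryo, follows Dmrt3 on the chromosome. Its intensity in GS lines 1, 2 and 3 was 130, 242 and 358, a 2.75-fold range, and line 1 was itself under the background level. In the 20 other lines it ran from 83.9 to 120, all under background. Only 2 of 23 lines therefore held a Dmrt2 level above background, and both were GS lines. The same 3 GS lines had feeder marker levels of 819, 292 and 247 and olfactory gene means of 64.4, 76.5 and 80.2, so Dmrt2 was lowest in the GS line with the most feeder signal and the least olfactory signal, and the part of either in this order was not tested.

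The group mean of Dmrt2 in GS, 224, was at least 1.39-fold above the other groups, taking the background level for them. By limma it passed as lower than in GS in all 7 groups, with a highest adjusted p of 0.0013. The lines of no group overlapped with GS, although GS line 1 was under background as they were. The call was lost for Sox2 mGS with the feeder marker level as a covariate (limma adjusted p = 0.069) and for Oct4 mGS when only the groups compared were fitted (limma adjusted p = 0.057).

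**Figure D2:**
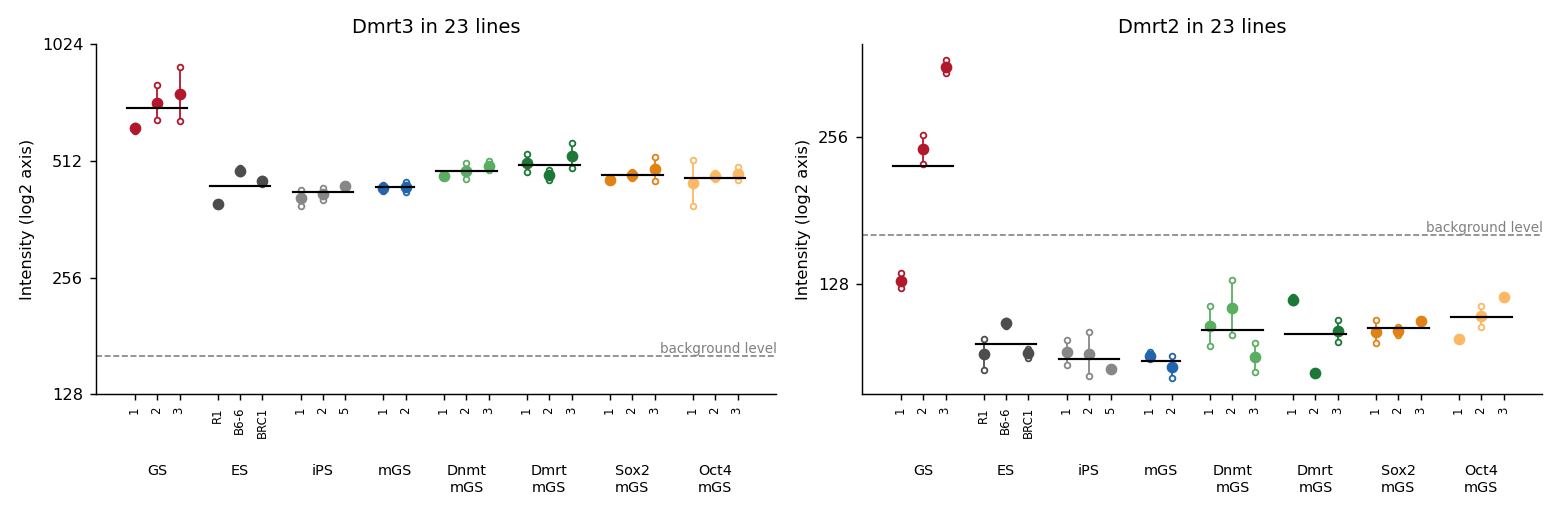
Dmrt3 and Dmrt2 intensity (log2 axis) by group and line, with the same symbols: open circles for cultures, filled circles for lines, black bars for group means and a dashed line for the background level of 161. Dmrt3 stays between 395 and 528 outside GS, under all 3 GS lines. Dmrt2 stays between 83.9 and 120 outside GS, and only GS lines 2 and 3 are above background.

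Dmrtb1, the family member of differentiating spermatogonia, had 667, 729 and 803 in GS lines. ES lines had 521, 653 and 584, iPS lines 602, 568 and 579, spontaneous mGS lines 571 and 575, and Dnmt mGS lines 544, 533 and 597. The routes nearest to GS were Dmrt mGS with 648, 641 and 693, Sox2 mGS with 655, 623 and 680, and Oct4 mGS with 617, 597 and 639. Of the 20 lines, 18 lay below the dimmest GS line, and the other two were Dmrt mGS line 3 and Sox2 mGS line 3. Dmrtb1 was lower than in GS in 5 of 7 groups by limma: ES (-0.32 ± 0.08, adjusted p = 0.0041), iPS (-0.33), spontaneous mGS (-0.35), Dnmt mGS (-0.39 ± 0.08, adjusted p = 0.00088) and Oct4 mGS (-0.24, adjusted p = 0.025). It did not pass for Dmrt mGS (-0.15, limma adjusted p = 0.18) or Sox2 mGS (-0.16, limma adjusted p = 0.13).

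The median gene was at -0.17 in iPS, -0.13 in spontaneous mGS and -0.13 in Dnmt mGS. With each array centred on its median the 5 calls of Dmrtb1 held, and Sox2 mGS passed as well (-0.23, limma adjusted p = 0.045). Of 93 values under other settings for the 5 called groups, 84 stayed past the threshold and 9 did not. The ES call was lost with quantile normalization (limma adjusted p = 0.056) and with only the groups compared (limma adjusted p = 0.080), and so was that of spontaneous mGS (limma adjusted p = 0.051 and 0.057). For Oct4 mGS the call was lost with only the groups compared (limma adjusted p = 0.12) and without GS line 2, GS line 3, Oct4 mGS line 1 or Oct4 mGS line 2, with the value lowest in size without GS line 3 (-0.18, limma adjusted p = 0.14).

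Dmrta2, which acts in patterning of the cerebral cortex, was measured above background in all 23 lines and showed little difference between groups. It had 403, 442 and 464 in GS, and 343 to 468 in the other 20 lines, of which 10 were below the dimmest GS line. The 1 call by limma was iPS against GS, at -0.22 ± 0.09 with an adjusted p of 0.042, where the iPS lines had 393, 376 and 354. This is close to the shift of the median gene in that comparison (-0.17), and 11 of 19 other settings lost the call, among them each array centred on its median (-0.14, limma adjusted p = 0.31) and leaving out iPS line 2, iPS line 5, GS line 2 or GS line 3.

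Dmrta1, a relative of Dmrta2, was under background in 22 of 23 lines, and levels there have no settled order. GS lines had 97.2, 77.8 and 75.6, while the Sox2 route gave 118, 156 and 148 and Oct4 mGS lines had 146, 188 and 80.7. Oct4 mGS line 2 was the only one of 23 above background. In the remaining groups Dmrta1 lay between 60.6 and 104. 
In the limma fit Dmrta1 passed the threshold against GS in Sox2 mGS (adjusted p = 0.012) and Oct4 mGS (adjusted p = 0.028). The group means, 140 and 130 against 83.0 in GS, all lie under background, so neither a fold nor a direction is given. The Oct4 mGS call was lost without any 1 of Oct4 mGS line 2 (limma adjusted p = 0.18), GS line 2, GS line 3 or Oct4 mGS line 1. Feeder markers were highest in these 2 routes, with geometric means of 1858 in Sox2 mGS and 1142 in Oct4 mGS against 336 to 795 elsewhere, and pluripotency markers were lowest, at 975 and 1346 against 2080 to 3014 in the other pluripotent groups. With the feeder level as a covariate, neither comparison passed (limma adjusted p = 0.21 and 0.15). Over the 20 lines outside GS Dmrta1 had a Pearson r of -0.88 with the pluripotency markers and 0.58 with the feeder markers, as a description. Of these lines only Oct4 mGS line 2 was above background, so the values order levels without a settled order and show no direction.

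**Figure D3:**
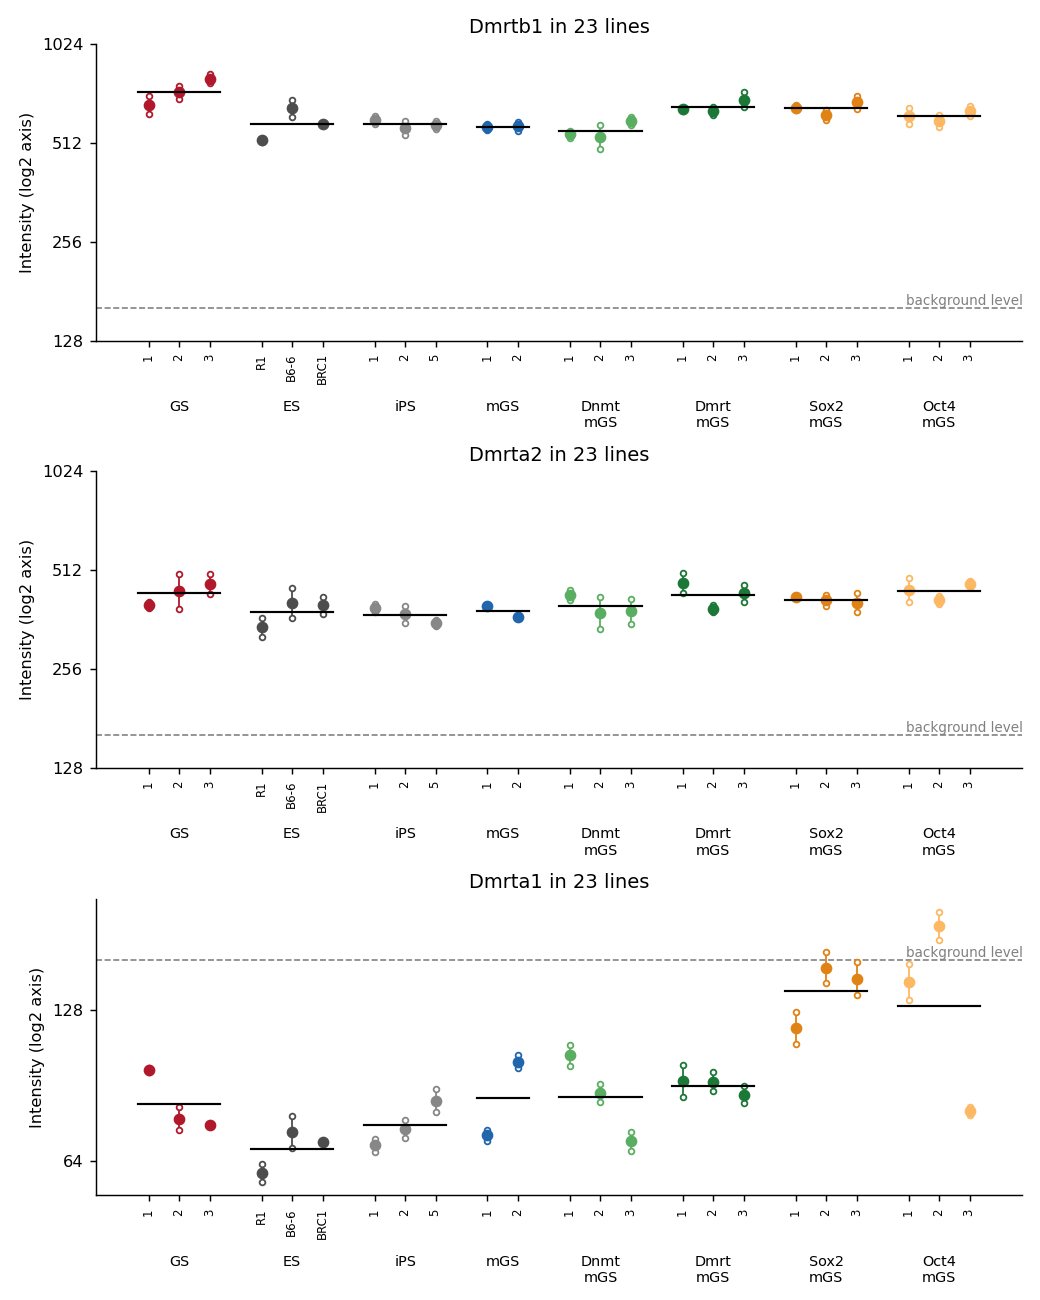
Dmrtb1, Dmrta2 and Dmrta1 intensity (log2 axis) by group and line, with open circles for cultures, filled circles for lines, black bars for group means and a dashed line for the background level of 161. Dmrta1 is above that line only in Oct4 mGS line 2 (188), while Dmrta2 and Dmrtb1 are above it in all 23 lines.

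Set against the whole array, the family's count of calls in each comparison with GS was small in number and the array's own share was large. Of the 6 genes, 4 were called in ES, all lower, where limma called 43.2% of all genes and 26.0% as lower. In iPS 5 were called, all lower, against 54.0% of all genes and 35.5% as lower. That lower share of the iPS calls was 65.7% as deposited and 53.6% with each array centred on its median. In spontaneous mGS 4 were lower (43.1% of all genes called, 26.9% lower), in Dnmt mGS 4 (49.1% and 30.0%) and in Dmrt mGS 3 (41.7% and 24.1%). With the Sox2 route 3 were lower and Dmrta1 passed at levels under background, where 44.0% of all genes were called, 24.7% lower and 19.4% higher. In Oct4 mGS 4 were lower and Dmrta1 again passed at levels under background, where 42.9% of all genes were called, 22.7% lower and 20.2% higher. The median log2 difference of the 6 genes lay between -0.52 in iPS and -0.31 in Dmrt mGS. These comparisons share the 3 GS lines.

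**Figure D4:**
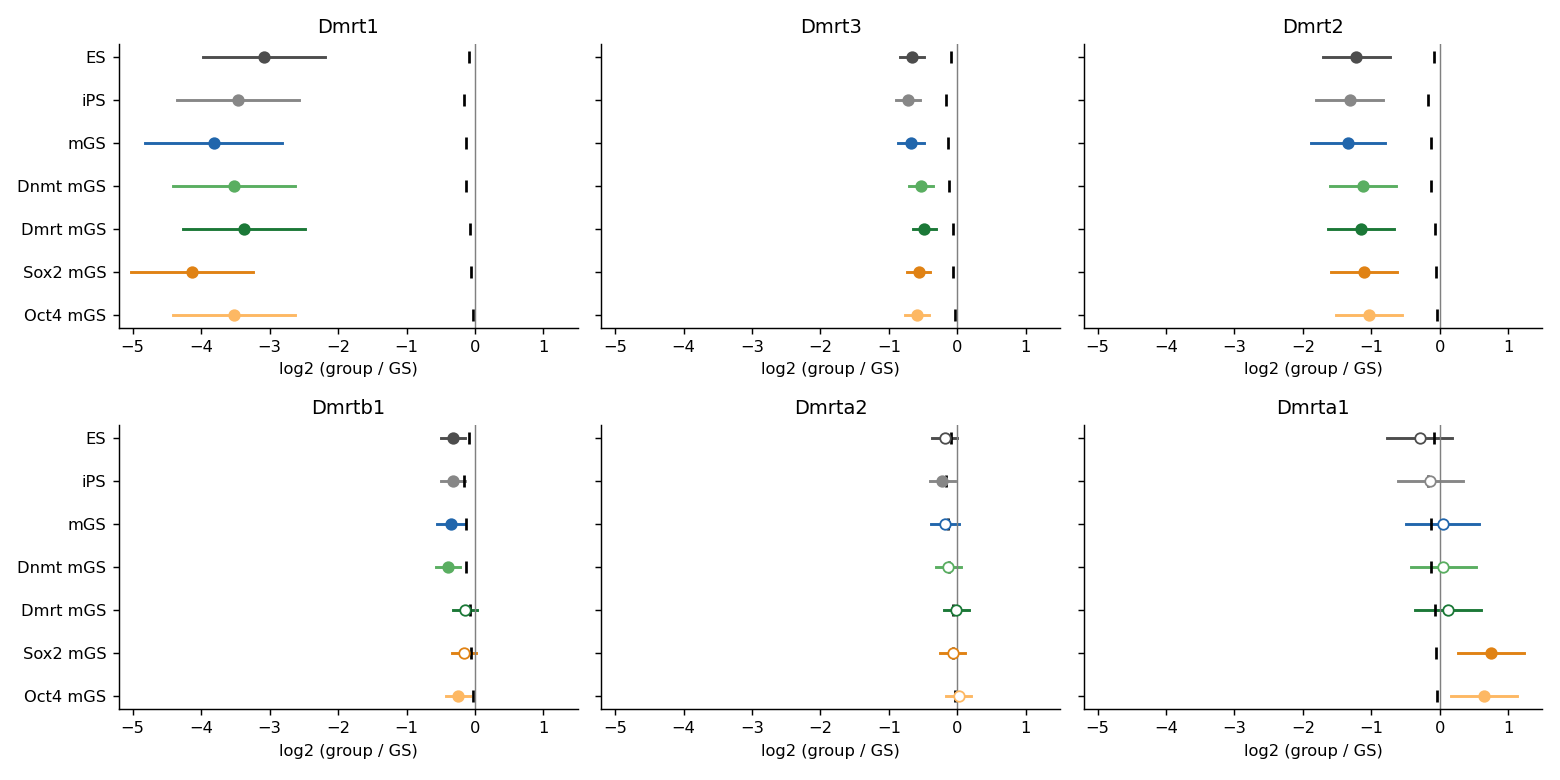
Log2 difference from GS for the 6 genes in the 7 other groups (limma, 23 lines), with 95% intervals as bars, filled points where the adjusted p is under 0.05 and open points where it is not; the black tick is the median of all genes in that comparison. Dmrt1 lies between -4.14 and -3.08 and Dmrt3 between -0.72 and -0.48; points of Dmrt2 and Dmrta1 are fitted values that rest on levels under background.

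Outside GS, 15 comparisons gave 90 tests of the 6 genes by limma, of which 5 passed. None of the 6 was called in iPS against ES (0.627% of all genes called), spontaneous mGS against ES (0.206%), Dnmt mGS against ES (11.4%) or Dmrt mGS against ES (4.66%); at an unadjusted p under 0.05 the counts were 0, 0, 0 and 2. Against ES, 1 member, Dmrta1, passed in Sox2 mGS (limma adjusted p = 0.0058, 14.8% of all genes called) and Oct4 mGS (limma adjusted p = 0.015, 9.42%). Against iPS no member passed by limma in spontaneous mGS (0% of all genes called), Dnmt mGS (6.87%) or Dmrt mGS (0.848%), with 0, 1 and 3 at an unadjusted p under 0.05. Dmrta1 again passed in Sox2 mGS (limma adjusted p = 0.011, 23.6%) and Oct4 mGS (limma adjusted p = 0.032, 13.8%). Each of these levels is under background except Oct4 mGS line 2, so no direction is given.

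Between the 4 induced routes, 1 member was called. Dmrtb1 was lower in Dnmt mGS than in the mean of the other 3 routes (-0.21 ± 0.07, limma adjusted p = 0.045, 19.2% of all genes called), although its 3 lines overlapped with those of the other routes. The call was lost in most settings, for example with each array centred on its median (-0.15, limma adjusted p = 0.16). By limma no member was called for Dmrt mGS (0.316% of all genes), Sox2 mGS (14.1%) or Oct4 mGS (1.06%) against the other routes, with 0, 1 and 0 at an unadjusted p under 0.05.

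Over all 23 lines the 3 neighbours on chromosome 19 had Pearson r of 0.83 for Dmrt1 with Dmrt3, 0.70 for Dmrt1 with Dmrt2 and 0.90 for Dmrt2 with Dmrt3. Over the 20 lines outside GS the same values were 0.14, -0.37 and 0.54, so the first 2 relations rest on the GS lines. The value for Dmrt2 with Dmrt3 fell as well. Dmrt2 was under background in all 20 lines, where levels have no order, so its values there show no relation. Levels of Dmrt2, Dmrta2, Dmrtb1 and, less so, Dmrt3 also moved with the olfactory genes, which stand for background. Over the 20 lines r with the olfactory mean was -0.22 for Dmrt1, 0.67 for Dmrt2, 0.45 for Dmrt3, 0.24 for Dmrta1, 0.74 for Dmrta2 and 0.58 for Dmrtb1. The olfactory mean was 73.4 in GS and 61.4 to 68.8 in the other groups. The part of background level in the smaller differences of Dmrt2, Dmrt3, Dmrta2 and Dmrtb1 was not tested.

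The genes on either side of the chromosome 19 cluster were read as well, taking the nearest 2 measured protein-coding genes on each side, a choice made after seeing the data. Dock8, a regulator of the actin cytoskeleton in immune cells, was at 309 to 368 in GS and at 102 to 121, under background, in all 20 other lines. It was lower in 7 of 7 groups (highest limma adjusted p = 2.9e-11), at least 2.08-fold. Kank1, which lies between Dock8 and Dmrt1, went the other way, with 196 to 236 in GS and 209 to 492 elsewhere, and was called higher in 6 of 7 groups by limma (ES, at 0.32, had an adjusted p of 0.23). On the far side Smarca2, a chromatin remodelling ATPase, was lower in 3 of 7 groups, ES, iPS and spontaneous mGS, and Gm815 was under background in all lines. Levels thus did not fall along the whole stretch: a gene between Dock8 and Dmrt1 was higher where both were lower.

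**Figure D5:**
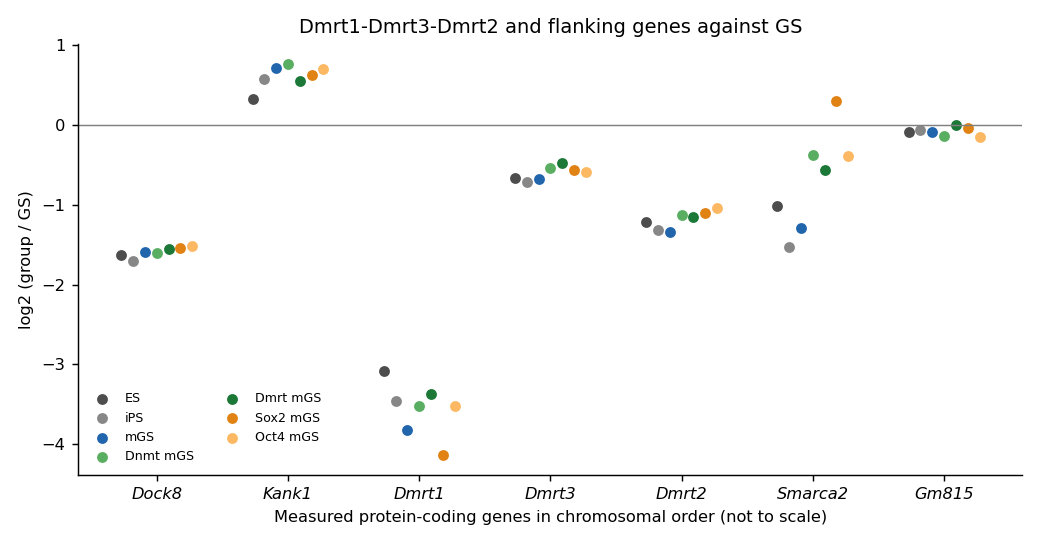
Log2 difference from GS for 7 genes of chromosome 19 in their order along the chromosome, 1 point per group and gene. Dock8, Dmrt1, Dmrt3 and Dmrt2 lie below 0 in all 7 groups, Kank1 lies above 0, and Smarca2 spans both sides, from -1.52 to 0.30.

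Around the chromosome 4 members, Glis1 beside Dmrtb1 was lower than in GS in 7 of 7 groups (-1.18 to -0.81), with 361 to 410 in GS and 168 to 232 elsewhere. On the other side of Dmrtb1, Lrp8 was higher in 6 of 7 groups, with 183 to 448 in GS and 315 to 936 elsewhere, so the genes next to Dmrtb1 went opposite ways. Cdkn2a, a cell cycle inhibitor gene near Dmrta1, was also lower in 7 of 7, whereas Cdkn2b between it and Dmrta1 was called in none by limma. Faf1 beside Dmrta2 was higher in 7 of 7 groups (0.32 to 0.55), while Dmrta2 itself was called in 1.

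RefSeq promoter windows (build GRCm38.p6, the 250 bases before the annotated start) were found for 5 of the 6 genes, and none for Dmrt1. Those of Dmrt3 and Dmrt2 are shown because these genes were lower together in all pluripotent groups. Each CG pair, the unit of DNA methylation that Dnmt1 maintains, is in capitals. The windows are chr19:25610287-25610536 for Dmrt3 and chr19:25672161-25672410 for Dmrt2, both on the plus strand and both ending at the base before the start.
Dmrt3: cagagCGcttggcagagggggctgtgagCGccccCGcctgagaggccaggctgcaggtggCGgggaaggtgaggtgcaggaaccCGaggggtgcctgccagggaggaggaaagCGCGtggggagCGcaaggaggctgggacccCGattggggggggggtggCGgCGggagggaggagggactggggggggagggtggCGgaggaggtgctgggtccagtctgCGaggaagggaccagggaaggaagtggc
Dmrt2: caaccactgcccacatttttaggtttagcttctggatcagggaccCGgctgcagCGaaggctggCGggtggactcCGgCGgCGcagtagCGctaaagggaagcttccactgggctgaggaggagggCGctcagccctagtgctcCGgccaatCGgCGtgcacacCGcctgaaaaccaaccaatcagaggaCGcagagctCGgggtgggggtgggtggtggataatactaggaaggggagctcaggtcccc
They hold 13 and 14 CG pairs, where the median over 32851 windows of 27025 genes is 6 and 68.5% and 70.6% of windows hold fewer. The window of Dmrta2 has 19, that of Dmrta1 has 7 and the pair of windows of Dmrtb1 have 21 and 7. The counts of Dmrt3 and Dmrt2 thus lie within the range of the other members with a window, which leaves out Dmrt1. Methylation was not measured in these arrays. The windows were also searched for ACANTGT, the core of the DMRT1 binding motif, whose reverse complement is the same pattern, so both strands are read at once. It is present in 6.47% of all windows and, among the 5 genes, only in that of Dmrta2, shown for this reason, at chr4:109977775-109978024 on the plus strand, with the matches in capitals, 137 and 55 bases before the start.
Dmrta2: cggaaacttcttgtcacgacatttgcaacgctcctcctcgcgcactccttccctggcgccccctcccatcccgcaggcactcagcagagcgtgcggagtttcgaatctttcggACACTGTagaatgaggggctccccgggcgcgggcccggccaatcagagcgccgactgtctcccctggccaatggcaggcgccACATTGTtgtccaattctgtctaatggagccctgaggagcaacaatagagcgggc
A match is a string of letters and not a bound site, and the absence of the letters elsewhere says nothing of the factor.

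Of the further family members, Dmrtc2, a testis gene, was read by a probe set of its own. It had 479, 418 and 312 in GS lines, 289, 510 and 206 in Dnmt mGS lines, 427, 151 and 184 in Dmrt mGS lines, and 83.0, 124 and 319 in Oct4 mGS lines. Single lines of 3 routes thus reached GS levels, and the remaining groups lay between 120 and 192. The 2 cultures of a line differed in Dmrtc2 by a median of 0.14 on the log2 scale and by at most 1.45. The level of a single line can therefore rest on cultures that disagree. By limma Dmrtc2 was lower than in GS in ES, iPS, spontaneous mGS, Sox2 mGS and Oct4 mGS (highest adjusted p = 0.015). The means of these groups, 136 to 149, lie under background. With lines under it set to the background level, Dmrtc2 was at least 2.32-fold, 2.44-fold, 2.46-fold, 2.38-fold and 1.96-fold higher in GS, in that order, with 1 line above background in each group but spontaneous mGS, which had none. It did not pass in Dnmt mGS (-0.35, limma adjusted p = 0.52) or Dmrt mGS (-0.80, limma adjusted p = 0.15). Dmrtc1a and Dmrtc1b were under background in all 23 lines.

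Genes tied to DMRT1 in spermatogonia were taken as a list of 24, all measured. In ES 16 of them were lower than in GS and 3 higher, where limma called 26.0% of all genes lower and 43.2% in either direction, and the median log2 difference was -1.35 against -0.09 for all genes. In Dmrt mGS 16 were lower and 4 higher, where 24.1% of all genes were lower and 41.7% called in all, with a median of -1.82 against -0.07. Over the other groups the lower count ran from 14 in spontaneous mGS to 17 in iPS and Dnmt mGS. Of the list, Zbtb16, Ret, Gfra1, Nanos2, Nanos3, Sohlh1, Ddx4, Dazl, Lhx1 and Bcl6b were also GS markers above. Their fall repeats that check of the labels and is no separate result about DMRT1. Zbtb16, a zinc finger gene that keeps spermatogonial stem cells undifferentiated, was at 11648 in GS and under background in ES and Dmrt mGS, at least 72.3-fold lower. Ret, the receptor through which GDNF signals, was at 4086 in GS and also under background in both, at least 25.4-fold lower. Dazl, an RNA-binding protein gene of the germ line, had log2 differences of -4.25 in ES and -4.73 in Dmrt mGS, and Nanos3, which protects germ cells, had -3.90 in ES and was under background in Dmrt mGS, at least 15.4-fold lower. Among the smallest that passed, Nanos2 had -0.60 and -0.53, and Stra8, the gate to meiosis, was at 209 in GS and under background in both, at least 1.30-fold lower.

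Against the direction of that list, Kit, the receptor of differentiating spermatogonia, was higher in ES (857 against 236 in GS, a log2 difference of 1.86) and in Dmrt mGS (1.26). Etv5, a transcription factor gene induced by GDNF, was higher by 1.40 and 1.63, and Sall4, which germ cells share with pluripotent cells, by 0.77 and 0.66. Crabp2, a retinoic acid carrier, was higher in Dmrt mGS (1.16) and did not pass in ES (0.18). Between Dmrt mGS and ES 2 of the 24 were called by limma, where 4.66% of all genes were called. So small a count is no result about the list, and the 2 genes are named here after their values were seen. Sohlh2, a spermatogonial differentiation factor, was at 188 in Dmrt mGS and 795 in ES (-2.08, adjusted p = 0.025), and Taf4b was at 892 and 1157 (-0.37, adjusted p = 0.028). Against the other 3 induced routes no gene of the lists described here was called for Dmrt mGS by limma, where 0.316% of all genes were called.

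Of 10 pluripotency genes, 9 were higher in ES than in GS and 7 in Dmrt mGS, none was lower in either, and the medians were 3.50 and 3.41. Of all genes 43.2% and 41.7% were called in these comparisons. Nanog, Esrrb, Zfp42, Tdgf1, Fgf4 and Klf4 were also among the pluripotency markers above, so their rise repeats that check of the labels. Nanog was at 5161 in ES and 4625 in Dmrt mGS, under background in GS and at least 28.7-fold higher in Dmrt mGS. Tdgf1 was at least 33.7-fold and 28.2-fold higher and Fgf4, under background in GS, was at 3133 and 3228. Esrrb was at least 15.0-fold higher in ES, and Utf1 had a log2 difference of 4.08 in Dmrt mGS. The smallest rises that passed were those of Klf4 (1.67) and Zfp42 (2.50) in ES and of Sox2 (2.86) and Pou5f1 (3.39) in Dmrt mGS. Klf4 (0.85) and Zfp42 (0.97) did not pass in Dmrt mGS, and Dnmt1 did not pass in ES (-0.48) or Dmrt mGS (-0.31).

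Of 17 genes on which DMRT1 acts in gonadal sex, 16 were measured, and 5 were lower than in GS in ES and 3 in Dmrt mGS, with none higher in either. These counts are near the share of all genes called lower, 26.0% in ES and 24.1% in Dmrt mGS, and are no result about the list. Fgf9, a male-pathway growth factor, differed by -1.14 and -1.03 and Sox8 by -0.43 and -0.45, while Esr1 was under background in both, at least 1.22-fold lower. Wnt4 passed in ES (-0.27) and not in Dmrt mGS (-0.23), and Esr2 passed in ES at levels under background on both sides. The list's medians, -0.20 and -0.19, were close to those of all genes, -0.09 and -0.07. Of 16 somite and forebrain genes, the tissues of Dmrt2 and Dmrta2, 15 were measured and 4 passed as lower in ES and 3 in Dmrt mGS, again near the shares of all genes. Lhx2, Mesp2 and Pax7 were under background in ES, at least 1.52-fold, 1.33-fold and 1.34-fold lower, and Tbx6 was under background in GS as well. In Dmrt mGS Lhx2 (-0.51), Pax7 (-0.39) and Mesp2 (at least 1.33-fold) were lower and Pax6, an eye and forebrain regulator, was higher (318 in Dmrt mGS, under background in GS, at least 1.97-fold).

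The genes whose pattern over 23 lines was most like that of Dmrt1 were found by Pearson r of log2 intensity among 12748 genes with a mean above background. They were Pik3cd (0.94), Zbed5 (0.94), Piwil2 (0.93), Sipa1 (0.93), Hif1an (0.93), Smim24 (0.93), Tex11 (0.93) and Thada (0.93). Outside GS, over 20 lines, their r fell to between 0.49 for Tex11 and 0.63 for Sipa1, so the likeness rests largely on the contrast with GS. The most opposite patterns were those of Plscr1 (-0.96), Tnfrsf21 (-0.94), Rdx (-0.94) and Bckdhb (-0.94), and Plscr1 kept an r of -0.83 over the 20 lines. For Dmrt2 the nearest were Tmem132e (0.96), Fgf9 (0.95) and Kcnab3 (0.95), and for Dmrt3 Wdr78 (0.95), Mgat4f (0.95) and Nhlrc1 (0.94). Over the 20 lines r was, in that order, 0.50, 0.52 and 0.71 for Dmrt2 and 0.74, 0.79 and 0.72 for Dmrt3. Dmrt2 was under background in all 20 of these lines. For Dmrta2 the nearest were Mir211 (0.92), Trav13-5 (0.91) and Iqank1 (0.91), and for Dmrtb1 Gm8098 (0.91), Xkr6 (0.90) and 4930597O21Rik (0.89).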

How the data were processed

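Expression was read on 46 arrays from 23 lines, 2 cultures each. The authors deposited 1 table of linear intensity per probe set, and for its scaling none of the sources used here gives a method. Build mm9 is named in the submitters' processing notes. Of 28856 probe sets, 21789 carry 1 symbol, 1621 several and 5446 are not in the annotation; the brightest probe set stood for a gene. Log2 intensities of the cultures were averaged per line and tested in limma 3.58.1 (R 4.3.3) in 1 fit of 8 groups, with 15 residual degrees of freedom, adjusted over 19938 genes within each comparison at 0.05; the fit was tested on simulated data. Tables and figures used Python 3.11.15, pandas 2.3.3 and matplotlib 3.10.9.

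A fold written "at least" sets the brighter group's mean over the background level, and levels under it have no order. The named genes were all 6 members; the 8 highest and 4 lowest Pearson r with Dmrt1, and the 3 highest for each other member above background in a group (Dmrta1 is not given); and, of each list, the 4 largest and 2 smallest log2 differences in size among genes past the threshold in ES and Dmrt mGS against GS, with those opposite to the list. Members and lists were chosen with earlier results of these data known. The alternatives were quantile normalization, centring on array medians, an offset of 32, leaving out the 40% dimmest genes, a mean over probe sets, a trended variance, all arrays with or without the line as a block, replicate blocks, a feeder covariate, the groups compared alone, no culture 1 of Oct4 mGS line 1, and leaving out each line.

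Replicate numbers were checked as pairs: same-numbered lines of 2 groups correlated over 0.1 in 24 of 52 pairs, with a range of -0.64 to 0.79. The numbers were not taken to pair the lines, and a shared origin or batch behind them was not tested.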

Additional observations from a re-analysis of the deposited data

Results flagged for a closer look

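Dmrta1 passed limma's threshold between pluripotent groups at levels under background in all lines but Oct4 mGS line 2. The fitted log2 values were 1.05 for Sox2 mGS against ES, 0.89 against iPS, 0.95 for Oct4 mGS against ES and 0.79 against iPS. They set levels under background against each other, so they are given as values of the fit and show neither a direction nor a size. The Oct4 mGS value against ES was 0.68 without that line (limma adjusted p = 0.086) and 0.87 without Oct4 mGS line 1 (limma adjusted p = 0.067), and that against iPS missed the threshold without any 1 of the iPS lines or either of these 2 lines. Against iPS, neither passed with the feeder marker level as a covariate (0.62, limma adjusted p = 0.18, for Sox2 mGS and 0.60, limma adjusted p = 0.13, for Oct4 mGS).

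Dmrtb1 was lower in Dnmt mGS than in the mean of the other induced routes (-0.21), and the call was lost without Dnmt mGS line 1 (-0.19, limma adjusted p = 0.18) or line 2 (-0.17, limma adjusted p = 0.18).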

How the results depend on the processing

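Over 13 settings and the leaving out of each line, 2548 values of the 6 genes were recomputed, 2364 kept their direction and side of the threshold, and 0 called values changed sign. Some settings cannot move a log2 difference of these genes, so their direction was fixed in advance. Among them are the mean over probe sets, as each gene has 1, and the culture number, as each line has both. The number of members called in Sox2 mGS against GS was 2 without the 40% dimmest genes, which drops Dmrt2 and Dmrta1, and 2 with the feeder covariate. In Oct4 mGS against GS it was 3 without the dimmest genes, 2 with only the groups compared, and 3 to 5 with 1 line left out (3 without GS line 2 or 3, or Oct4 mGS line 1 or 2). Dmrt1 in Dmrt mGS against ES ran from -0.62 to 0.15 with 1 line left out; against iPS it ran from -0.23 to 0.53 and was -0.28 with the feeder covariate. The causes were not tested.

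The labels do not say what lines with the same replicate number share. With the clone number as a replicate block, Dmrt1 in iPS against GS was -3.67, and culture numbers had a median correlation of 0.003. Fitting the 46 arrays with the line as a random block changed 6 calls of the 6 genes, and adding the culture number to it as a replicate block changed 0 more. Each line has both culture numbers, so by design the culture number cannot move a group difference, and its count says nothing of a batch. Under that random block alone Dmrt1 was called lower in Sox2 mGS against ES (limma adjusted p = 0.0052) and against the other routes (-0.66, limma adjusted p = 0.033), and Dmrta2 in iPS against GS was lost (limma adjusted p = 0.17). The clone number as a block, with ES left out, changed 2 calls, those of Dmrta2 in iPS against GS (limma adjusted p = 0.14) and Dmrtb1 in Sox2 mGS against GS (limma adjusted p = 0.044).

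Signal over background limits Dmrt2 and Dmrta1 most, with 2 and 1 of 23 lines above it.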
